A study of Mus with 15 samples.

Results

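CD25+ regulatory T cell (Treg) progenitors from the mouse thymus were compared with conventional CD4 single-positive (CD4SP) thymocytes by bulk RNA sequencing. The comparison used 6 of the 15 libraries of the series, 3 for each gate, chosen by their labels. All cells came from thymi of 6-week-old female mice of the strain C57Bl/6 x Foxp3-GFP, in which green fluorescent protein reports Foxp3. Both gates took live cells with CD4 and the beta chain of the T cell receptor (TCR) on their surface that lacked CD8, CD73 and BST2. Conventional cells were CD25- Foxp3- and the progenitors were CD25+ Foxp3-, so the gates differed in surface CD25 alone. FOXP3lo progenitors (CD25- Foxp3lo) and mature Tregs (CD25+ Foxp3+) from the same sort, 3 libraries each and also negative for CD73 and BST2, were used where a gene's level in CD25+ progenitors is set beside another gate. The series text speaks of 3 biological replicates. The labels number them 40, 42 and 43 and do not say whether a replicate was 1 mouse or a pool. The p-values therefore measure how far these samples differ, and how much of their spread lies between mice is not known.

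Tregs restrain immune responses and depend on the transcription factor FOXP3. In the thymus they arise from CD4SP cells that meet self-antigen with a strong TCR signal. One route passes through cells that first gain CD25, the alpha chain of the high-affinity IL-2 receptor, and then turn on Foxp3 when IL-2 signals through STAT5. The other passes through cells with low FOXP3 and no CD25. CD25+ progenitors are therefore cells after the TCR-driven step and before FOXP3, and conventional CD4SP cells, most of which never enter the Treg lineage, are their reference.

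The 12 libraries of the 4 gates held between 12597114 and 23758157 counts, and the 6 compared here between 12842773 and 23758157. Mitochondrial genes took 10.3% to 12.5% of the counts of conventional libraries and 10.4% to 10.9% of those of CD25+ progenitors. Conventional replicate 42 had the fewest counts of the 6, the most genes with a count (23382, against 19741 to 21964 in the other 5) and the highest mitochondrial share. Levels are given in CPM, the count of a gene relative to the corrected total of its library, for replicates 40, 42 and 43 in that order. CPM is not corrected for gene length, so levels are compared between samples and not between genes. A gene was called at an adjusted p under 0.05 in edgeR's quasi-likelihood test, with p-values adjusted by Benjamini and Hochberg's method across the 15648 genes tested. Log2 fold changes are CD25+ progenitors over conventional cells, with an approximate standard error. That error is the size of the change divided by the square root of the test's F statistic.

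The sort was visible in the RNA. Il2ra, which encodes CD25 (ENSMUSG00000026770, chromosome 2, 11642807 to 11693193 of GRCm38), lay at 10.4, 7.49 and 9.48 CPM in conventional cells and at 296, 283 and 292 CPM in CD25+ progenitors, with no overlap. It served to choose the cells, so this is a check of the labels and not a result. Foxp3 (ENSMUSG00000039521, chromosome X, 7573644 to 7595245) stood at 0.772, 1.57 and 0.523 CPM in conventional cells and 4.21, 1.83 and 3.62 CPM in CD25+ progenitors. The progenitor values were all above the conventional ones (log2 fold change 1.82 ± 0.37, adjusted p = 0.00213), and far below the 273 to 302 CPM of FOXP3lo progenitors and the 535 to 651 CPM of mature Tregs. Of the other gating molecules, Bst2 was at 11.9 to 15.6 CPM in conventional cells and 12.4 to 17.1 CPM in CD25+ progenitors and was not called, while Nt5e, which encodes CD73, was at 0.325 to 1.87 and 3.41 to 4.15 CPM (log2 fold change 1.78 ± 0.40, adjusted p = 0.000537).

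The progenitor markers set for this population were high. Ikzf2 (ENSMUSG00000025997, chromosome 1, 69531214 to 69687245), which encodes the Treg-associated factor Helios, rose from 93.5, 94.9 and 98.8 to 1108, 1197 and 1186 CPM (log2 fold change 3.60 ± 0.07, adjusted p = 8.20e-33). Its level in CD25+ progenitors was not distinguished from that in mature Tregs (1061 to 1270.2 CPM, difference 0.01 ± 0.07). Tnfrsf9 (ENSMUSG00000028965, chromosome 4, 150914562 to 150946102), which encodes the costimulatory receptor 4-1BB, rose from 27.7, 40.7 and 41.9 to 377, 421 and 475 CPM (log2 fold change 3.54 ± 0.13, adjusted p = 1.94e-13). For both genes every progenitor library was above every conventional library. The genes that define a CD4SP thymocyte were present in both gates and lower in CD25+ progenitors. Cd4 fell from 856, 807 and 925 to 675, 679 and 705 CPM, Trbc1 from 215, 253 and 257 to 129.6, 137 and 146 CPM, and Zbtb7b, which encodes the CD4-lineage factor ThPOK, from 244, 225 and 226 to 123, 128 and 131 CPM (log2 fold change −0.86 ± 0.08, adjusted p = 3.38e-12). Cd3e and Trbc2 had log2 fold changes of −0.48 ± 0.06 and −0.62 ± 0.08. In bulk samples like these, fewer cells of a type and less RNA per cell cannot be told apart.

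**Figure D1:**
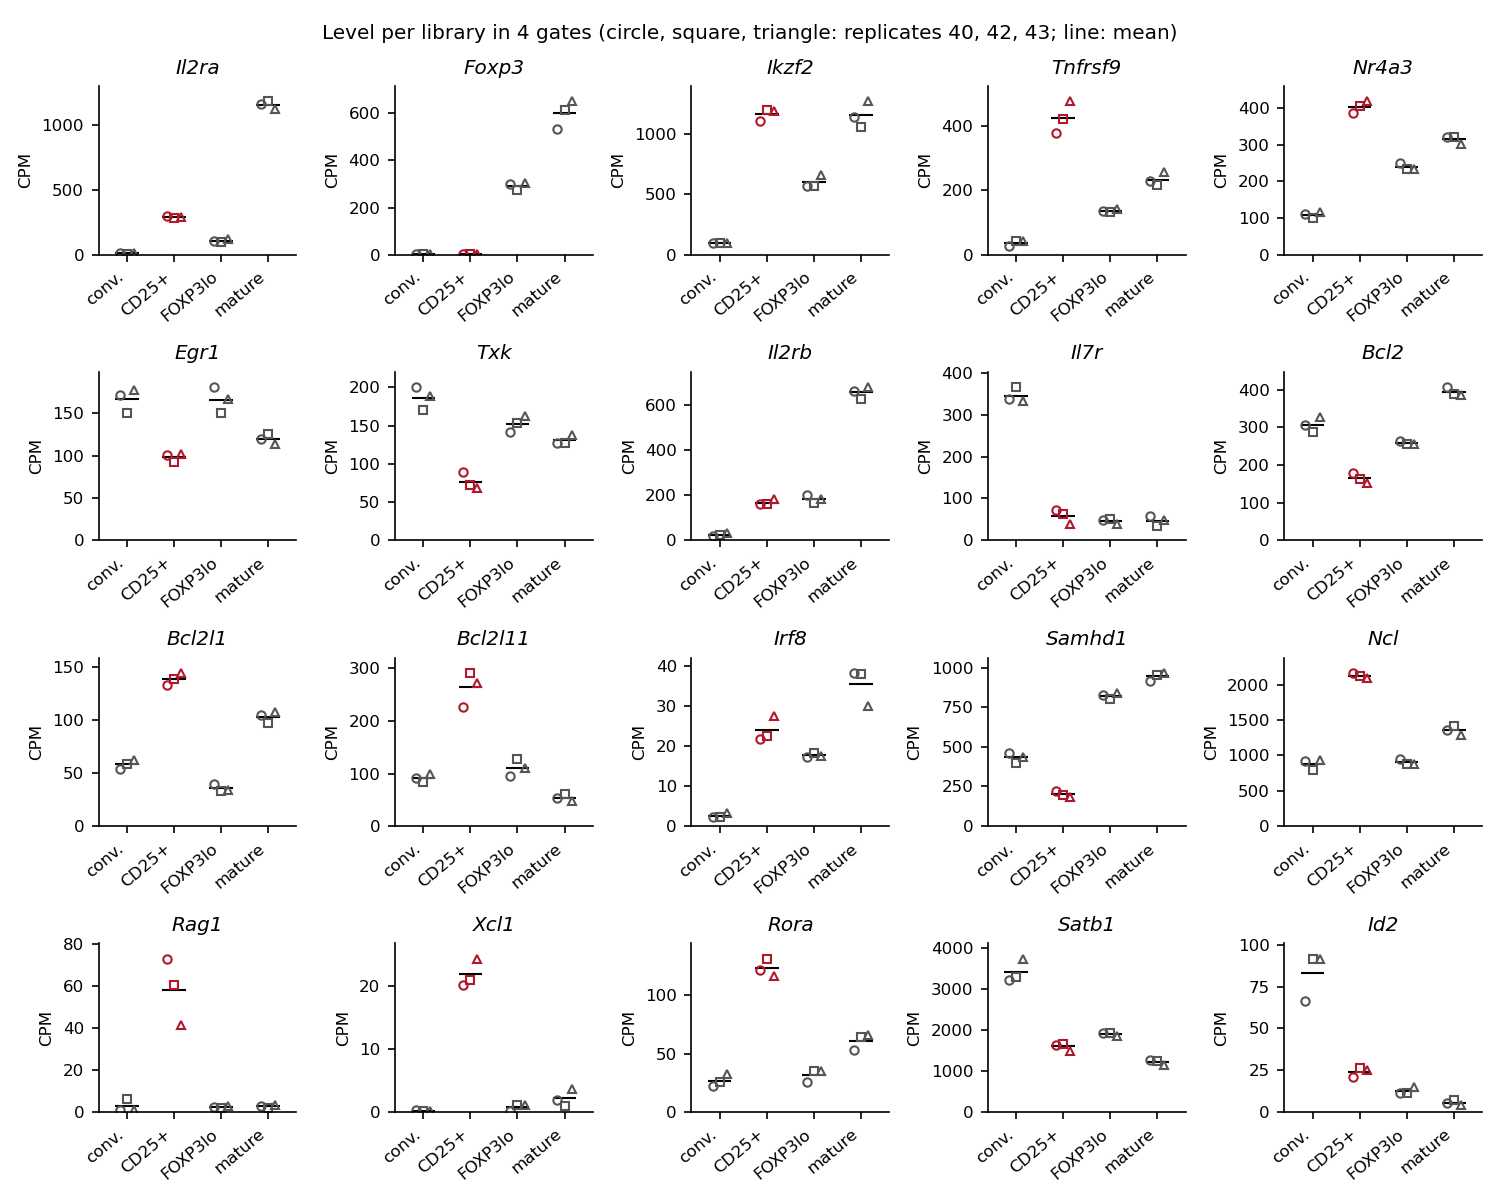
Levels of 20 genes in CPM (vertical axes, from 0) in each of the 12 libraries of the 4 gates. Symbols mark replicates 40, 42 and 43 and lines mark gate means. CD25+ progenitors (red) are the highest gate for Tnfrsf9, Nr4a3, Bcl2l1, Bcl2l11, Ncl, Rag1, Xcl1 and Rora, and the lowest for Egr1, Txk, Bcl2 and Samhd1.

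Over all genes, 2302 of 15648 were higher in CD25+ progenitors (14.7%) and 2232 were lower (14.3%). More than 4-fold differences were more often upward, with 384 genes higher and 128 lower. The libraries of the 2 gates did not overlap for 2203 of the 2302 higher and 2131 of the 2232 lower genes, so a lack of overlap was common to called genes. It was also frequent over all 15648 genes, called or not. CD25+ libraries lay above without overlap for 3183 genes and below for 3237. The numbers called on the same fit for CD25+ progenitors against FOXP3lo progenitors were 19.9% higher and 19.7% lower, and against mature Tregs 16.8% higher and 15.9% lower. When the Bst2+ libraries of the series were added to the fit, 1871 genes were called between the 2 gates. A test against a fold of 1.5 called 1152. Beside a count of list members called against conventional cells, parentheses give the count in either of these fits where it differs by over 1.5 times.

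The largest rises were in genes that were almost silent in conventional cells. Gfra1, a receptor for glial-derived neurotrophic factor, had no count in conventional libraries and 6.94, 4.97 and 3.67 CPM in CD25+ progenitors, at least 93.9-fold higher against a floor of 3 counts over the gate. H19, an imprinted long non-coding RNA, had 1 count in conventional cells and 15.4, 9.94 and 9.95 CPM in progenitors, a ratio of 638 (95% counting interval 114 to 25244). Wnt3, a secreted Wnt ligand, also had 1 count in conventional cells and 5.57, 5.12 and 4.52 CPM in progenitors, a ratio of 279 (49.6 to 11046). These intervals cover counting error only. Xcl1 (ENSMUSG00000026573, chromosome 1, 164931644 to 164935527), a chemokine that attracts cross-presenting dendritic cells and is made by medullary stroma as well as lymphocytes, rose from 0.284, 0.1497 and 0.0582 to 20.2, 20.99 and 24.4 CPM (log2 fold change 6.88 ± 0.54, adjusted p = 3.76e-12). Bcat1, which transfers the amino group of branched-chain amino acids, rose from 0.203, 0.674 and 0.6398 to 25.3, 31.9 and 32.9 CPM (log2 fold change 5.99 ± 0.32, adjusted p = 1.54e-18). The other named genes with the largest rises were Wnt10a (7.14), Epb41l4b (6.15), Pdzk1ip1 (5.96), Car8 (5.85), Kif26b (5.35), Arhgap24 (5.17) and Itgb8 (5.07, log2 fold changes). With so few counts in conventional cells, 1 library moved some of these fits. The log2 fold change of Xcl1 was 7.68 without conventional replicate 40, that of Wnt10a 6.36 without conventional replicate 40 and 10.97 without conventional replicate 42, that of Arhgap24 4.53 without conventional replicate 40 and 6.31 without conventional replicate 42 and that of Kif26b 7.91 without conventional replicate 40.

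Falls were smaller and came from genes with a clear level in conventional cells. Il7r (ENSMUSG00000003882, chromosome 15, 9505788 to 9530176), the IL-7 receptor alpha chain that keeps naive T cells alive, fell from 338, 366 and 332 to 72.3, 62.7 and 40.2 CPM (log2 fold change −2.57 ± 0.24, adjusted p = 3.46e-05). Appl2, an endosomal adaptor, fell from 46.4, 43.3 and 44.1 to 6.01, 4.41 and 3.299 CPM (log2 fold change −3.29 ± 0.20, adjusted p = 6.54e-17). Hs3st3b1, a heparan sulfate sulfotransferase, fell from 64.9, 50.5 and 53.04 to 11.7, 8.57 and 6.44 CPM (log2 fold change −2.66 ± 0.38, adjusted p = 0.000298). Among genes of at least 5 CPM in the higher gate, Gpnmb, Cyp2s1, Ly6a, Adamts14, Ggt5, Rflnb, Slc28a2b, Sgk1 and Oas2 completed the 12 largest named falls, with log2 fold changes from −3.93 for Gpnmb to −2.54 for Oas2.

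**Figure D2:**
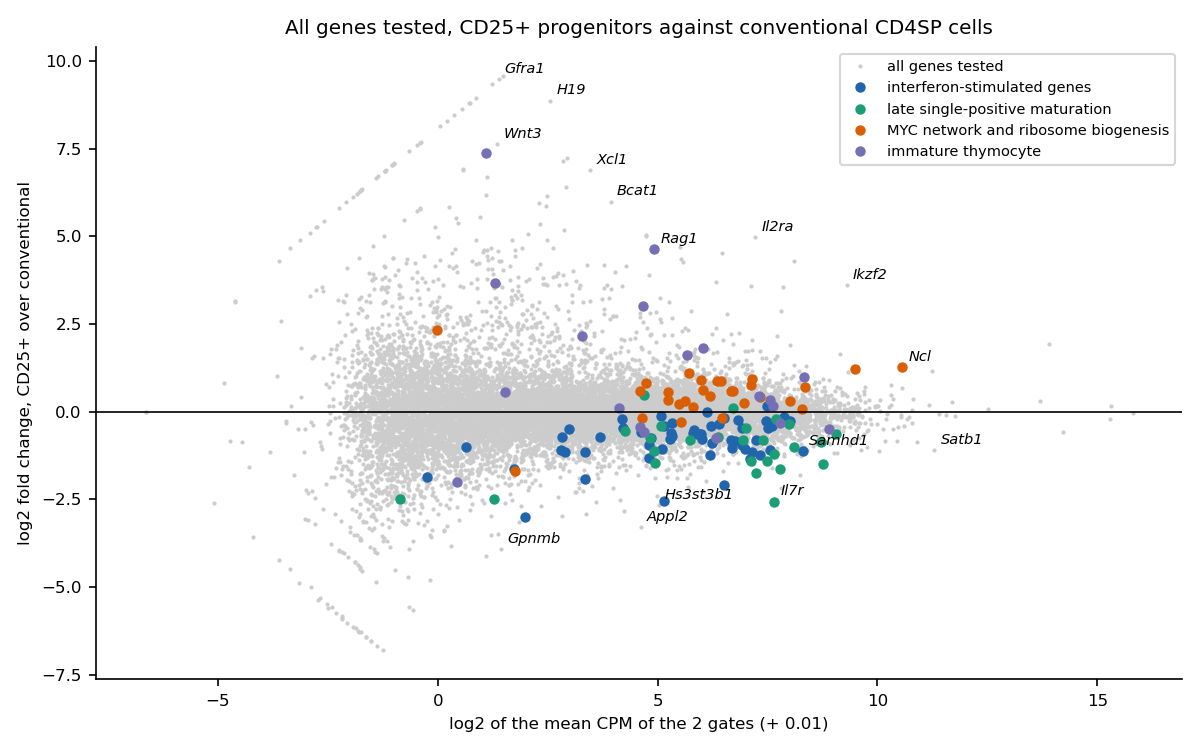
Log2 fold change of CD25+ progenitors over conventional cells (vertical) against the log2 mean CPM of both gates (horizontal) for the 15648 genes tested, with members of 4 gene lists in colour. Interferon-stimulated and late maturation genes lie mostly under 0 and ribosome biogenesis genes mostly above it; the straight edges at the left are genes with no count in 1 gate, whose fitted change is not a bound.

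Most genes of the TCR signalling machinery were lower in CD25+ progenitors. Of 24 tested genes for the TCR complex and its proximal kinases and adaptors, 18 (4 against a fold of 1.5) were lower in CD25+ progenitors and 2 (0 with all 15 libraries, 0 against a fold of 1.5) were higher, with a median log2 fold change of −0.45 beside −0.01 over all genes tested. Txk, a Tec-family kinase of T cells, fell from 201, 171 and 189 to 89.8, 72.3 and 68.1 CPM (log2 fold change −1.29 ± 0.09, adjusted p = 1.44e-15). Grap2, an adaptor (GADS) that couples LAT to SLP-76, fell from 441, 392 and 401 to 231, 214 and 174 CPM (log2 fold change −0.999 ± 0.08, adjusted p = 3.34e-14). Malt1, a protease that carries the TCR signal to NF-kB, fell from 171, 163 and 158 to 88.9, 82.1 and 76.9 CPM (log2 fold change −0.99 ± 0.08, adjusted p = 3.66e-13). The 3 genes did not overlap between the gates. Fyn, a Src-family kinase, had a log2 fold change of −0.68 ± 0.06, and Lck, which starts the cascade, of −0.43 ± 0.06. All chains of the receptor in the list (Trac, Trbc1, Trbc2, Cd3d, Cd3e, Cd3g and Cd247) were lower, with log2 fold changes from −0.45 to −0.81. The kinase Zap70 was at 163 to 169.7 CPM in conventional cells and 169 to 218 CPM in progenitors and was not called, except without CD25+ replicate 40 (log2 fold change 0.24). The 2 higher members were Plcg1, the phospholipase that releases calcium (0.25), and Tec (0.70), and Tec was not called without conventional replicate 40 (0.62), conventional replicate 42 (0.63), CD25+ replicate 40 (0.71), CD25+ replicate 42 (0.70) or CD25+ replicate 43 (0.69).

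The same machinery was set beside the other gates, in contrasts that share the CD25+ libraries. Of the 24 genes, 17 were lower and 1 was higher than in FOXP3lo progenitors, while 8 were lower and 5 higher than in mature Tregs. Txk, Grap2, Malt1, Fyn and Prkcq (protein kinase C theta) were called lower in CD25+ progenitors than in all 3 other gates.

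Transcription factors known to be induced by the TCR went both ways. Of 17 tested, 8 were higher and 7 (1 against a fold of 1.5) lower. The NR4A orphan nuclear receptors, which track TCR signal strength, were all higher. Nr4a3 rose from 111, 99.3 and 115 to 388, 406 and 418 CPM (log2 fold change 1.89 ± 0.07, adjusted p = 5.62e-24), Nr4a1 from 163, 143 and 161 to 340.4, 382 and 461 CPM (log2 fold change 1.34 ± 0.09, adjusted p = 3.33e-13), and Nr4a2 had a log2 fold change of 1.79 ± 0.24. All 3 were also higher in CD25+ progenitors than in FOXP3lo progenitors and in mature Tregs. Bhlhe40, a repressor induced by activation, rose from 2.11, 1.42 and 0.989 to 48.4, 48.4 and 57.4 CPM (log2 fold change 5.03 ± 0.20, adjusted p = 1.13e-22). Irf4 (0.90) and Myc (0.46) were higher as well. The early growth response factors moved the other way. Egr1 fell from 171, 150.4 and 178 to 101, 91.97 and 102 CPM (log2 fold change −0.76 ± 0.08, adjusted p = 3.76e-10), Egr2 and Egr3 had log2 fold changes of −0.61 ± 0.13 and −0.77 ± 0.13, and their corepressor Nab2 fell from 156, 163 and 177 to 90.04, 91.5 and 76.2 CPM (log2 fold change −0.94 ± 0.08, adjusted p = 3.74e-12). Nfatc2 (−0.63), Tox (−0.57) and Id3 (−0.54) were also lower, and no library of Egr1, Nab2 or Tox overlapped between the gates.

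Inhibitors that feed back on TCR signalling were higher more often than lower, 12 (7 with all 15 libraries, 7 against a fold of 1.5) against 7 (4 with all 15 libraries, 1 against a fold of 1.5) of 27 tested. The dual-specificity phosphatases that switch off ERK separated by member. Dusp4 rose from 5.24, 9.58 and 7.91 to 162, 159 and 184 CPM (log2 fold change 4.52 ± 0.16, adjusted p = 1.10e-13) and Dusp5 from 68.4, 58.3 and 67.1 to 194, 207 and 261 CPM (log2 fold change 1.77 ± 0.09, adjusted p = 3.22e-19), while Dusp6, the phosphatase of cytoplasmic ERK, fell from 63.4, 66.1 and 83.7 to 41.1, 44.6 and 42.5 CPM (log2 fold change −0.73 ± 0.12, adjusted p = 3.04e-06). Spry1, a Sprouty inhibitor of the Ras pathway, rose from 2.15, 2.096 and 1.57 to 30.96, 31.5 and 29.9 CPM (log2 fold change 3.98 ± 0.24, adjusted p = 2.76e-17), and Tagap, a GTPase-activating protein, from 15.1, 16.4 and 16.1 to 76.7, 77.2 and 93.1 CPM (log2 fold change 2.38 ± 0.11, adjusted p = 5.57e-21). Dgka, the diacylglycerol kinase that damps Ras activation, fell from 1107, 1071 and 1034 to 508, 485 and 518 CPM (log2 fold change −1.09 ± 0.06, adjusted p = 5.45e-18). Cd5, a surface inhibitor often read as a mark of TCR signal strength, was at 387, 435 and 425 CPM in conventional cells and 374, 448 and 452 CPM in progenitors, an overlap, and was not called (adjusted p = 0.789). The count of lower members was 4 without conventional replicate 43.

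**Figure D3:**
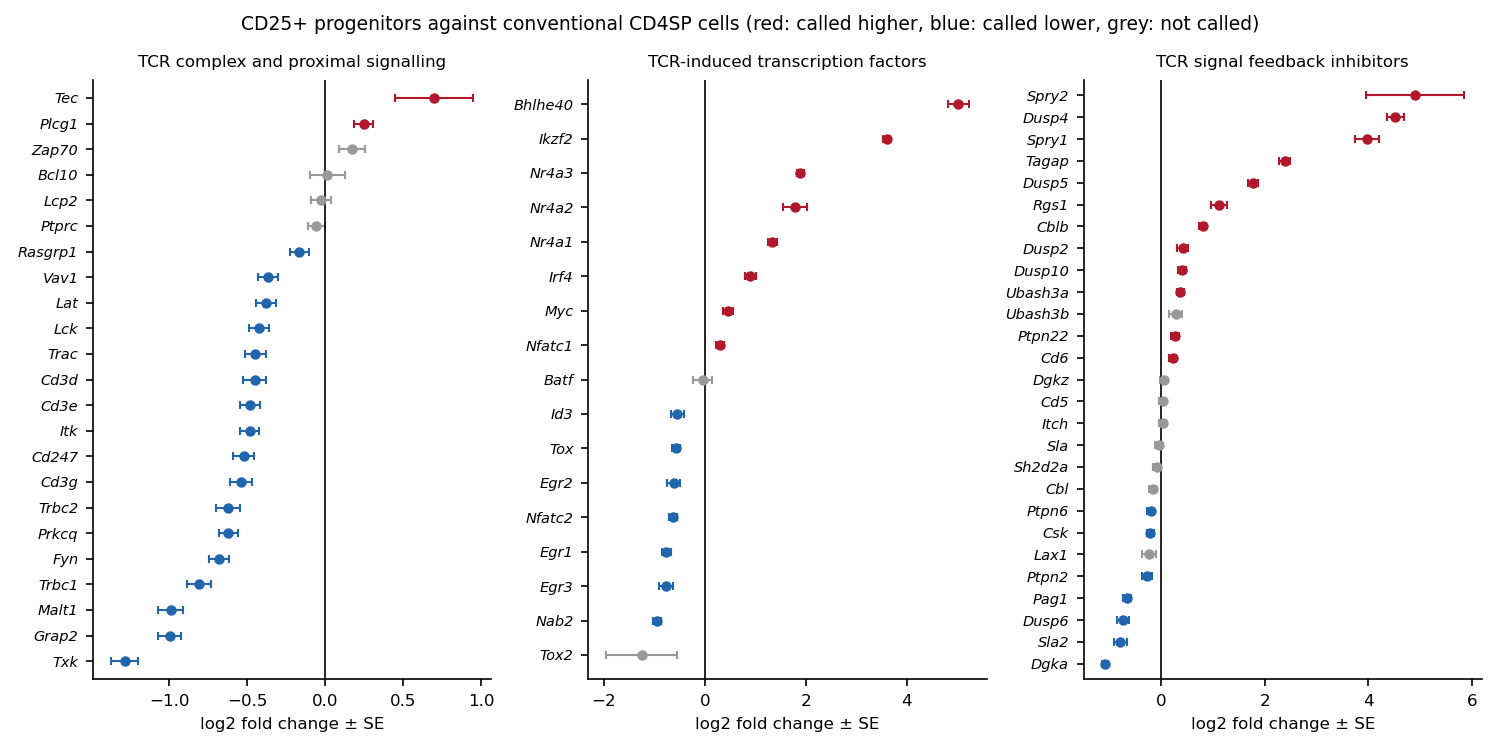
Log2 fold change ± standard error (horizontal) of tested members of 3 TCR lists, with members called higher in red, called lower in blue and not called in grey. Most members in the left panel are lower, while the other 2 panels hold members with large rises, up to 5.03 for Bhlhe40.

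Costimulatory and co-inhibitory receptors were mostly higher. Of 10 tested members of the CD28 family and related inhibitory receptors, 6 rose. Pdcd1, which encodes PD-1, rose from 9.54, 11.4 and 11.5 to 33.7, 37.4 and 43.5 CPM (log2 fold change 1.83 ± 0.15, adjusted p = 6.92e-13), and Cd200, whose receptor restrains myeloid cells, from 17.7, 19.5 and 20.8 to 66.4, 67.4 and 75.5 CPM (log2 fold change 1.86 ± 0.11, adjusted p = 3.65e-17). Ctla4, the inhibitory receptor through which Tregs strip ligands from dendritic cells, rose from 10.2, 12.4 and 11.2 to 33.3, 21.2 and 29.2 CPM (log2 fold change 1.32 ± 0.12, adjusted p = 3.37e-11). In Ctla4 the progenitor libraries stayed under the 84.9 to 96.4 CPM of FOXP3lo progenitors and the 179 to 215 CPM of mature Tregs, both called. Cd28 itself was the 1 lower member (0 with all 15 libraries, 0 against a fold of 1.5). Its log2 fold change of −0.17 ± 0.06 was not called without conventional replicate 42 (−0.14), conventional replicate 43 (−0.15), CD25+ replicate 40 (−0.15), CD25+ replicate 42 (−0.19) or CD25+ replicate 43 (−0.17).

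Receptors of the TNF family went both ways. Of 14 tested, 7 were higher and 4 (2 with all 15 libraries, 2 against a fold of 1.5) lower. Tnfrsf1b (TNFR2) rose from 57.1, 50.7 and 57.3 to 206, 215 and 265 CPM (log2 fold change 2.05 ± 0.09, adjusted p = 1.95e-21), Tnfrsf18 (GITR) from 52.4, 53.4 and 54.3 to 133, 131 and 165 CPM (log2 fold change 1.42 ± 0.10, adjusted p = 8.01e-15) and Tnfrsf4 (OX40) from 38.3, 35.2 and 46.8 to 159.8, 179 and 234 CPM (log2 fold change 2.25 ± 0.15, adjusted p = 6.26e-08). These 3 did not overlap between the gates. Tnfrsf1a (TNFR1) fell from 57.9, 48.4 and 51.2 to 25.8, 27.2 and 27.6 CPM (log2 fold change −0.97 ± 0.14, adjusted p = 6.49e-07), and Tnfrsf14 (HVEM), Relt and Tnfrsf26 had log2 fold changes of −0.73, −0.85 and −1.30. Fas, a death receptor, rose by 0.85. Of 12 ligands tested, 5 (2 with all 15 libraries, 3 against a fold of 1.5) were higher and 2 (0 with all 15 libraries, 0 against a fold of 1.5) lower. Tnfsf14, which encodes the HVEM ligand LIGHT, went from 0, 0.599 and 1.34 to 6.87, 5.07 and 5.37 CPM (log2 fold change 3.20 ± 0.67, adjusted p = 0.000196), and Tnfsf8 (CD30 ligand) from 17.8, 15.6 and 17.4 to 42.5, 47.5 and 48.2 CPM (log2 fold change 1.44 ± 0.13, adjusted p = 2.55e-12), with no overlap. The change of Tnfsf14 was 2.54 without conventional replicate 40 and 4.49 without conventional replicate 43. The lower ligands were Ltb, lymphotoxin beta (−0.40), and Tnf (−0.54), and Tnf was not called with the replicate number as a block (log2 fold change −0.54) or without conventional replicate 40 (−0.54), conventional replicate 42 (−0.41), CD25+ replicate 40 (−0.50), CD25+ replicate 42 (−0.58) or CD25+ replicate 43 (−0.55).

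Of 25 NF-kB genes tested, 14 (8 with all 15 libraries, 5 against a fold of 1.5) were higher and 9 (5 with all 15 libraries, 1 against a fold of 1.5) lower (median 0.30). The rises included the subunits Nfkb1, Nfkb2, Rel and Relb and the inhibitors Nfkbia, Nfkbie and Tnfaip3. Nfkb2, the precursor of p52, rose from 74.8, 73.3 and 78.1 to 159.5, 202 and 202 CPM (log2 fold change 1.32 ± 0.09, adjusted p = 6.23e-16). Nfkb1, the precursor of p50, rose from 325, 277 and 297 to 554, 576 and 593 CPM (log2 fold change 0.94 ± 0.06, adjusted p = 2.34e-15), and Rel, which acts at the Foxp3 locus, from 123, 110 and 108 to 225, 222 and 218 CPM (log2 fold change 0.96 ± 0.07, adjusted p = 1.15e-14). For all 3 the gates did not overlap. Tnfaip3 (A20) had a log2 fold change of 1.000 ± 0.08. The subunit Rela was not called (−0.10 ± 0.10, adjusted p = 0.543). The lower members included kinases and adaptors upstream of the subunits, Map3k14 (NIK, −0.56), Ikbkb (−0.44), Chuk (−0.33) and Traf5 (−0.82), and the inhibitor Nfkbiz (−0.55). Other Traf and Birc genes went both ways. Traf2 (0.30), Traf3 (0.29) and Birc3 (0.36) were higher, and Traf1 (−0.45), Traf4 (−0.44) and Birc2 (−0.28) were lower. Traf2 was not called without conventional replicate 42 (0.31), conventional replicate 43 (0.25), CD25+ replicate 42 (0.25) or CD25+ replicate 43 (0.28).

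The receptor chain for IL-2 was higher and that for IL-7 lower. Of 6 tested receptor genes of the common gamma chain family, 1 was higher and 3 (1 against a fold of 1.5) were lower. Il2rb, the beta chain shared by the IL-2 and IL-15 receptors, rose from 19.98, 21.7 and 31.001 to 161, 160.1 and 182 CPM (log2 fold change 2.80 ± 0.12, adjusted p = 7.87e-14), a level not distinguished from FOXP3lo progenitors (165 to 199 CPM) and lower than in mature Tregs (626 to 681 CPM, log2 difference −1.97 ± 0.11). Il7r fell, as given above, to a level not distinguished from FOXP3lo progenitors (38.95 to 50.3 CPM) and mature Tregs (34.2 to 57.6 CPM). Il4ra fell from 213, 199 and 186 to 119.8, 117 and 129.9 CPM (log2 fold change −0.71 ± 0.07, adjusted p = 1.05e-10). The common gamma chain Il2rg was lower by a log2 fold change of −0.33 ± 0.07, and Il21r (−0.03 ± 0.08) and Il15ra (0.10 ± 0.32) were not called. The names of Il2rb, and of Ctla4 and Cd28 above, were matched by position on a partial overlap of gene models.

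Below the receptors, Stat5a and the STAT5 target Cish were higher, in a list with more members lower than higher. Of 18 JAK-STAT genes, 4 (2 against a fold of 1.5) were higher and 7 (4 with all 15 libraries, 1 against a fold of 1.5) lower. Cish, a STAT5-induced inhibitor of cytokine and TCR signalling, rose from 15.9, 15.2 and 15.9 to 77.97, 72.5 and 82.2 CPM (log2 fold change 2.30 ± 0.09, adjusted p = 1.28e-22), and Stat5a from 84.6, 86.5 and 91.4 to 189, 189 and 207 CPM (log2 fold change 1.16 ± 0.07, adjusted p = 1.57e-16). Both were higher than in FOXP3lo progenitors, by log2 differences of 0.53 for Cish and 0.26 for Stat5a, and lower than in mature Tregs, by log2 differences of −1.39 and −0.63. Socs2, another STAT5 target, was at 0.0812 to 0.349 CPM in conventional cells and 0 to 0.7605 CPM in progenitors, was not called except without CD25+ replicate 40 (log2 fold change 1.94), and stood at 14.9 to 21.4 CPM in mature Tregs. Socs3, an inhibitor of the IL-6 pathway, fell from 19.5, 13.9 and 16.6 to 7.06, 8.01 and 4.84 CPM (log2 fold change −1.33 ± 0.21, adjusted p = 3.12e-06), and Stat2 and Jak1 were lower, with log2 fold changes of −0.41 and −0.51. Pim2 (−0.79) and Osm (−1.02) were lower as well, and Osm was not called with all 15 libraries.

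Il2 itself, chosen for description after its values were seen, had no count in the conventional, FOXP3lo or mature libraries. It lay at 1.36, 1.37 and 1.703 CPM in CD25+ progenitors, at least 27.3-fold higher than in conventional cells against a floor of 3 counts over the gate. It could pass the filter on low counts only through the CD25+ libraries, so no p-value is given for it. All 3 progenitor libraries held the transcript, at a low level.

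Treg lineage transcription factors other than Helios were more often lower. Of 19 tested, 11 (7 with all 15 libraries, 4 against a fold of 1.5) were lower and 3 higher. Satb1, the chromatin organiser that opens Treg super-enhancers, fell from 3222, 3301 and 3753 to 1645, 1666 and 1496 CPM (log2 fold change −1.10 ± 0.06, adjusted p = 8.50e-18), and Lef1, a TCF-family partner of beta-catenin, from 1159, 1119.5 and 1224 to 582, 586 and 562 CPM (log2 fold change −1.02 ± 0.06, adjusted p = 1.50e-17). Bcl11b, a T cell identity factor, was also lower (−0.45). Prdm1, which encodes the effector factor BLIMP-1, fell from 4.91, 3.74 and 3.37 to 0.557, 0.152 and 0 CPM (log2 fold change −4.11 ± 0.64, adjusted p = 1.93e-06), and its change was −5.57 without CD25+ replicate 40 and −3.52 without CD25+ replicate 43. The higher members included 2 Ikaros-family factors. Ikzf4 (Eos), a FOXP3 corepressor, rose from 31.2, 36.1 and 29.4 to 81.99, 80.9 and 95.8 CPM (log2 fold change 1.42 ± 0.09, adjusted p = 4.29e-16), and Ikzf3 (Aiolos) from 319.7, 237 and 263 to 488, 493 and 501 CPM (log2 fold change 0.85 ± 0.08, adjusted p = 3.52e-12). Bach2 was higher by 0.22, a call that was lost without conventional replicate 42 (0.14) or CD25+ replicate 43 (0.18). Foxo1, a regulator of Foxp3, was at 209 to 220.4 CPM in conventional cells and 192 to 206 CPM in progenitors without overlap and was not called.

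Surface and secreted molecules of Tregs were partly in place, in a list that also holds the intracellular Swap70 and Plagl1, both higher. Of 15 tested, 9 (5 with all 15 libraries, 5 against a fold of 1.5) were higher and 2 lower than in conventional cells, and 12 were lower than in mature Tregs. Lrrc32 (GARP), which presents latent TGF-beta, rose from 1.503, 1.796 and 1.51 to 51.2, 45.4 and 57.4 CPM (log2 fold change 5.01 ± 0.14, adjusted p = 1.28e-27), beside 281 to 295 CPM in mature Tregs. Itgb8, the integrin chain that frees active TGF-beta, rose from 0.284, 0.0749 and 0.291 to 8.79, 7.66 and 7.77 CPM, beside 17.8 to 40.6 CPM in mature Tregs. Swap70, a guanine nucleotide exchange factor, rose from 36.9, 34.9 and 36.5 to 156, 183 and 166 CPM (log2 fold change 2.22 ± 0.08, adjusted p = 4.69e-24). Gpr83, an orphan receptor of Tregs, went the other way, from 28.8, 30.7 and 28.1 to 12.4, 14.9 and 11.1 CPM (log2 fold change −1.19 ± 0.11, adjusted p = 8.59e-12), and so did Izumo1r, the folate receptor FR4, from 45.4, 59.4 and 59.8 to 24.96, 26.6 and 28.2 CPM (log2 fold change −1.04 ± 0.10, adjusted p = 9.84e-11). Nrp1, a mark of thymic Tregs, was at 7.44 to 11.4 and 8.16 to 11.2 CPM and was not called, beside 113 to 123 CPM in mature Tregs.

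Interferon-stimulated genes were lower almost throughout. Of 58 tested, 49 (28 with all 15 libraries, 23 against a fold of 1.5) were lower and 0 higher, and the median log2 fold change was −0.75. For the higher direction edgeR's quasi-likelihood test had 0 members at an unadjusted p under 0.05, and DESeq2 and limma-voom called 0. Samhd1, which depletes nucleotides in infected cells, fell from 464, 399 and 439 to 220.3, 196 and 185 CPM (log2 fold change −1.12 ± 0.07, adjusted p = 4.22e-17). Ifi208, a member of the DNA-sensing interferon-inducible family whose copies resemble each other, fell from 206, 186 and 193 to 91.8, 68.1 and 72.5 CPM (log2 fold change −1.33 ± 0.08, adjusted p = 8.68e-17), and Gbp4, a guanylate-binding protein, from 271, 256 and 246 to 114, 128 and 119 CPM (log2 fold change −1.10 ± 0.07, adjusted p = 1.91e-15). In each of these the highest progenitor library was under the lowest conventional one. The not-called members included Isg15 (16.8 to 21.6 CPM in conventional cells and 14.96 to 20.6 CPM in progenitors) and Eif2ak2 (60.4 to 79.97 and 64.2 to 73.6 CPM). The list was lower in CD25+ progenitors than in the other gates too, with 55 of 58 members lower than in FOXP3lo progenitors and 52 lower than in mature Tregs. All 4 gates had been sorted as negative for BST2, itself the product of an interferon-induced gene.

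Interferon receptors and regulatory factors did not move as one group, with 3 (1 against a fold of 1.5) higher and 4 (1 against a fold of 1.5) lower of 11 tested. Irf7, which amplifies type I interferon responses, fell from 95.8, 95.8 and 103 to 53.8, 48.8 and 56.7 CPM (log2 fold change −0.89 ± 0.09, adjusted p = 6.69e-11), and Irf1, Irf3 and Irf9 had log2 fold changes of −0.65, −0.68 and −0.36. Irf8, a factor of myeloid and activated lymphoid cells, rose from 2.32, 2.25 and 3.199 to 21.9, 22.5 and 27.6 CPM (log2 fold change 3.21 ± 0.20, adjusted p = 6.74e-17). The receptor chain Ifnar2 was higher by 0.47 ± 0.10. Irf8 also marks plasmacytoid dendritic cells, and 3 of 6 of their tested markers were higher (Irf8, Ly6d and Tcf4), with sums of 199 to 214 CPM in conventional libraries and 226 to 242 CPM in progenitors. Their defining genes Siglech and Klk1 had no count in any of the 6 libraries. The 1 lower marker (0 with all 15 libraries, 0 against a fold of 1.5) was Ccr9 (−1.99), not called without conventional replicate 43 (−1.72).

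Late maturation genes of single-positive thymocytes were lower. These genes rise as thymocytes prepare to leave the thymus. Of 26 tested, 23 (13 against a fold of 1.5) were lower and 1 (0 with all 15 libraries, 0 against a fold of 1.5) was higher (median −0.85). S1pr1 (ENSMUSG00000045092, chromosome 3, 115710433 to 115715072), the sphingosine receptor needed for egress, fell from 226, 188 and 188 to 86.9, 69.1 and 72.5 CPM (log2 fold change −1.40 ± 0.08, adjusted p = 2.59e-18). Gimap3, a GTPase of mature lymphocytes, fell from 346, 352 and 309 to 112, 113 and 99.3 CPM (log2 fold change −1.64 ± 0.07, adjusted p = 3.68e-22), and Ms4a6b from 255, 239.8 and 206 to 80.2, 68.95 and 60.98 CPM (log2 fold change −1.74 ± 0.08, adjusted p = 8.75e-20). The gates did not overlap for these 3 genes. Klf2, the factor that drives S1pr1, was also lower (−0.47). The 1 higher member, Lgals1 (0.47), was not called without conventional replicate 40 (0.33), conventional replicate 42 (0.50), CD25+ replicate 40 (0.42) or CD25+ replicate 43 (0.40). Against FOXP3lo progenitors and mature Tregs, 23 and 23 of the 26 were lower in CD25+ progenitors.

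Several genes of immature thymocytes were higher. Of 19 tested, 10 were higher and 6 (3 with all 15 libraries, 0 against a fold of 1.5) lower. Rag1 (ENSMUSG00000061311, chromosome 2, 101638282 to 101649501), a subunit of the recombinase that assembles antigen receptors, was at 0.894, 6.14 and 0.698 CPM in conventional cells and 72.9, 60.4 and 41.1 CPM in progenitors (log2 fold change 4.64 ± 0.67, adjusted p = 0.000698). Conventional replicate 42 was the highest of its gate and still far under the lowest progenitor library, and the log2 fold change was 6.15 without conventional replicate 42. Rag2, its partner, went from 0.325, 0 and 0.698 to 5.02, 5.58 and 3.03 CPM (log2 fold change 3.67 ± 0.85, adjusted p = 0.000677; 4.54 without conventional replicate 43). Dntt, which adds bases at receptor junctions, rose from 20.9, 26.3 and 28.4 to 90.04, 79.5 and 60.9 CPM (log2 fold change 1.61 ± 0.18, adjusted p = 7.81e-09), and Cd24a, a surface protein lost at maturity, from 23.2, 32.9 and 30.2 to 92.4, 107 and 104 CPM (log2 fold change 1.82 ± 0.12, adjusted p = 1.46e-15). Ptcra, the pre-TCR alpha chain, had 1 count in conventional cells and 4.64, 4.21 and 3.83 CPM in progenitors, a ratio of 232 (95% counting interval 41.3 to 9212). Sox4 (0.999) and Arpp21 (3.03) were also higher. Itm2a, which marks cells at positive selection, went the other way, from 483, 597 and 594 to 373, 392 and 427 CPM (log2 fold change −0.49 ± 0.08, adjusted p = 2.81e-06), as did Themis (−0.32) and Lztfl1 (−0.74).

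Markers of other thymic cells moved with some of these genes, and their part in the results was not tested. Of 11 markers of CD8 and double-positive cells, 6 were higher and 2 (0 with all 15 libraries, 0 against a fold of 1.5) were lower. Their summed level was 147 to 197 CPM in conventional libraries and 283 to 344 CPM in progenitors. The rises were in the recombinase and pre-TCR genes above and in Nkg7. The CD8 genes did not rise with them, with Cd8a at 9.18, 13.997 and 27.3 and 11.3, 17.9 and 24.2 CPM, an overlap, and Cd8b1 at 21.3, 29.9 and 32.6 and 19.1, 20.5 and 22.6 CPM. Cd8b1 had a log2 fold change of −0.42 that was not called without conventional replicate 42 (−0.37), conventional replicate 43 (−0.30), CD25+ replicate 40 (−0.37) or CD25+ replicate 42 (−0.41). Of 9 gamma-delta markers, 3 were higher (Trgc1, Trgc2 and Trgc4, whose near-identical sequences make their separate values uncertain), and the summed level was 22.9 to 35.4 against 46.5 to 52.9 CPM. Trgc2 went from 0, 0.299 and 0.0582 to 17.3, 14.2 and 13.99 CPM, while the delta chain constant gene Trdc was at 11.3 to 12.97 and 10.5 to 12.6 CPM and was not called. Of 5 innate-like markers tested of 14, 4 were higher, and the sum of 22.01 to 32.98 against 170.4 to 194 CPM came mostly from Il2rb. The defining factor Zbtb16 (PLZF) was at 0 to 0.233 and 0 to 0.867 CPM, and Klrb1c (NK1.1) had no count in conventional cells and 1 in progenitors.

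Many markers from outside the T lineage did not pass the filter on low counts. Erythroid and platelet markers passed it in 0 of 10 cases. A count of 0 over a gate allows up to 3 counts. The macrophage genes C1qa and Lyz2 had no count in the 3 progenitor libraries. Of dendritic cell and macrophage markers 1 of 7 tested was higher (sums 37.1 to 41.2 against 57.7 to 78.4 CPM). Of 4 epithelial and stromal markers 1 (2 with all 15 libraries) was higher and 2 (1 against a fold of 1.5) were lower. Their sums were 201 to 229.8 against 144 to 160 CPM. The higher stromal count was 2 without conventional or CD25+ replicate 42, and the lower count 1 without CD25+ replicate 42 or 43 or conventional replicate 43. Of 4 B cell markers 1 (0 with all 15 libraries) was higher and 1 (0 with all 15 libraries) was lower (33.1 to 41.5 against 21.7 to 25.3 CPM). The higher one was Cd79b, which was not called without CD25+ replicate 43 (2.84). Cd74, the invariant chain, rose from 12.1, 13.2 and 14.02 to 36.6, 45.9 and 45.6 CPM (log2 fold change 1.70 ± 0.17, adjusted p = 1.16e-10), Ly6d from 0, 0.374 and 0.291 to 5.51, 4.06 and 5.21 CPM (log2 fold change 4.57 ± 0.87, adjusted p = 6.13e-05), and Epcam from 3.21, 2.17 and 2.15 to 9.599, 12.2 and 11.2 CPM (log2 fold change 2.11 ± 0.34, adjusted p = 2.78e-06). The change of Ly6d was 3.87 without conventional replicate 40 and 5.18 without conventional replicate 42. The class II genes H2-Aa and H2-Ab1 were at 0.456 to 4.15 and 0.805 to 5.27 CPM in progenitors and were not called.

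Regulators of apoptosis moved in both directions within the BCL2 family. Of 23 tested, 10 (6 against a fold of 1.5) were higher and 4 (1 against a fold of 1.5) lower. Bcl2, the survival factor maintained by IL-7, fell from 306, 288 and 326 to 179.6, 162 and 152 CPM (log2 fold change −0.90 ± 0.07, adjusted p = 5.15e-14), while Bcl2l1, which encodes the survival factor BCL-XL, rose from 53.9, 58.2 and 62.4 to 133, 139 and 145 CPM (log2 fold change 1.26 ± 0.09, adjusted p = 7.08e-15). Bcl2l11, which encodes the killer BIM that acts in negative selection, rose from 92.03, 83.3 and 98.9 to 227, 292 and 273 CPM (log2 fold change 1.53 ± 0.10, adjusted p = 3.41e-13). No library overlapped between the gates for these 3, and each was lower (Bcl2) or higher (Bcl2l1 and Bcl2l11) in CD25+ progenitors than in all 3 other gates. The killer Bmf rose from 9.71, 6.14 and 7.39 to 20.9, 24.4 and 22.7 CPM (log2 fold change 1.54 ± 0.33, adjusted p = 0.000636). Bcl2a1d and Bcl2a1b, close copies of 1 survival gene whose reads may be split uncertainly, were both higher (3.01 and 2.29). Cflar and Casp8, the inhibitor and initiator of death-receptor killing, were lower (−0.53 and −0.49). Mcl1 was lower (−0.20), a call lost without CD25+ replicate 42 (−0.18), and Bax, Bad and Bbc3 (PUMA) were not called.

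Some replication genes were higher, and no mitotic gene was. Of 19 replication genes, 7 (1 against a fold of 1.5) were higher and 0 lower. Of 20 mitotic genes 0 were higher and 1 (0 with all 15 libraries, 0 against a fold of 1.5) was lower. For the directions with 0 calls, edgeR's quasi-likelihood test had 0 members at an unadjusted p under 0.05, and DESeq2 and limma-voom called 0. Mcm6, a helicase subunit, rose from 98.04, 86.1 and 83.99 to 182, 181 and 189.5 CPM (log2 fold change 1.04 ± 0.09, adjusted p = 4.59e-13) and Mcm5 from 55.1, 58.8 and 59.5 to 96.7, 94.96 and 88.2 CPM (log2 fold change 0.69 ± 0.10, adjusted p = 3.14e-07). Mki67, the proliferation marker, was at 212, 180.3 and 212 and 236, 168 and 159.9 CPM, an overlap, and was not called (adjusted p = 0.753), and Top2a was at 192, 168 and 189 and 182, 152 and 136 CPM (adjusted p = 0.0771). Top2a was called lower with the replicate number as a block (log2 fold change −0.23), by limma-voom (log2 fold change −0.25) and without CD25+ replicate 40 (log2 fold change −0.35) or conventional replicate 42 (log2 fold change −0.28). In contrasts that share the CD25+ libraries, 18 of 19 replication genes and 17 of 20 mitotic genes were higher in CD25+ progenitors than in FOXP3lo progenitors, and 16 and 16 were higher than in mature Tregs. By limma-voom 4 mitotic genes were lower, and 2 with the block or from the 6 libraries alone. The 1 called here, Birc5 (survivin, −0.72), was not called without conventional replicate 40 (−0.78), conventional replicate 42 (−0.71), conventional replicate 43 (−0.67), CD25+ replicate 40 (−0.76) or CD25+ replicate 43 (−0.57).

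**Figure D4:**
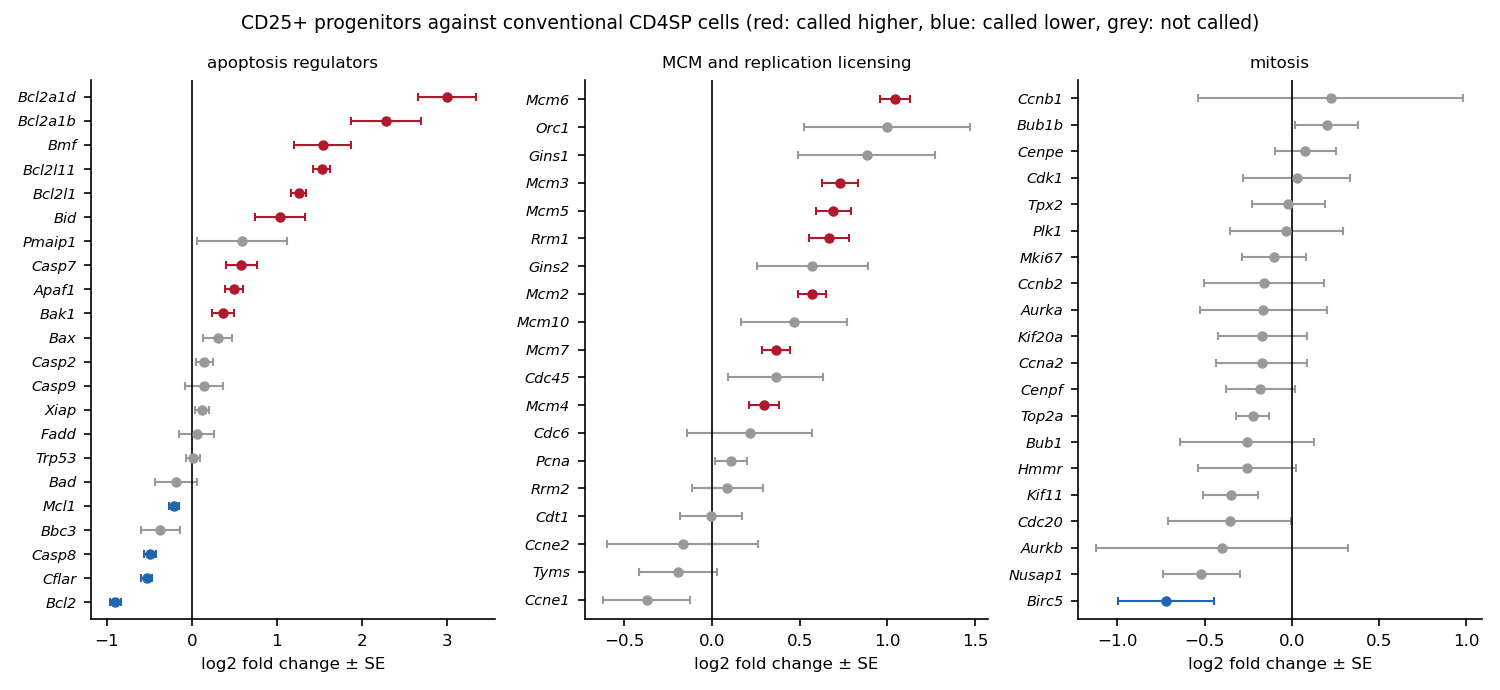
Log2 fold change ± standard error (horizontal) of tested apoptosis, replication and mitosis genes, coloured by call (red higher, blue lower, grey not called). Bcl2 lies at −0.90 and Bcl2l1 at 1.26, and 19 of 20 mitotic genes are not called.

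Biosynthetic genes were more often higher. Of 29 genes of the MYC network and ribosome production, 19 (7 against a fold of 1.5) were higher and 2 (0 with all 15 libraries, 0 against a fold of 1.5) lower, with a median of 0.58. Ncl, the nucleolar protein nucleolin, rose from 922, 791 and 931 to 2169.9, 2127 and 2098 CPM (log2 fold change 1.27 ± 0.06, adjusted p = 1.03e-19), and Npm1, a ribosome chaperone, from 416, 436 and 444 to 1014, 1019 and 969 CPM (log2 fold change 1.21 ± 0.06, adjusted p = 1.27e-19). Ddx21, a nucleolar helicase, rose by 0.72. The gates were separate for these 3 genes. Myc itself rose from 69.05, 58.5 and 56.7 to 82.4, 79.4 and 91.9 CPM (log2 fold change 0.46 ± 0.10, adjusted p = 0.000248), and its antagonist partner Mxd1 by 0.87. The lower members were Mxd3 (−1.68), not called without conventional replicate 42 (−1.52) or CD25+ replicate 42 (−1.52), and Mnt (−0.29), not called without conventional replicate 40 (−0.23), conventional replicate 43 (−0.27), CD25+ replicate 42 (−0.26) or CD25+ replicate 43 (−0.23). Compared with FOXP3lo progenitors and mature Tregs, 22 and 20 of the 29 were higher in CD25+ progenitors.

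Of 23 glycolytic and nutrient transport genes, 13 (8 with all 15 libraries, 6 against a fold of 1.5) were higher and 4 (2 with all 15 libraries, 2 against a fold of 1.5) lower. Hk2, an inducible hexokinase, rose from 3.899, 2.395 and 2.68 to 14.2, 16.7 and 21.6 CPM (log2 fold change 2.52 ± 0.26, adjusted p = 2.52e-10), Slc16a3, a lactate exporter, from 2.56, 1.65 and 1.69 to 17.4, 15.5 and 20.1 CPM (log2 fold change 3.13 ± 0.28, adjusted p = 5.88e-12), and Slc7a5, which imports large neutral amino acids, from 30.1, 23.95 and 26.3 to 56.6, 65.3 and 76.1 CPM (log2 fold change 1.30 ± 0.13, adjusted p = 4.29e-11). Txnip, a brake on glucose uptake, fell from 343, 299 and 352 to 152, 120.2 and 143 CPM (log2 fold change −1.26 ± 0.08, adjusted p = 1.43e-16). Glucose transporters did not rise: Slc2a3 fell from 63.1, 54.3 and 58.1 to 27.1, 29.2 and 24.5 CPM (log2 fold change −1.12 ± 0.11, adjusted p = 1.95e-11) and Slc2a1 was not called (−0.33 ± 0.16). Cholesterol genes were higher in 11 (5 with all 15 libraries, 4 against a fold of 1.5) of 20 cases and lower in 1 (0 against a fold of 1.5) (median 0.52). Cyp51, a sterol demethylase, rose from 13.1, 12.1 and 9.02 to 28.7, 29.5 and 22.3 CPM (log2 fold change 1.23 ± 0.21, adjusted p = 8.22e-06), and Srebf2, the transcription factor that drives sterol synthesis, from 116, 108 and 113 to 162, 176 and 188 CPM (log2 fold change 0.64 ± 0.08, adjusted p = 5.15e-09). The exporter Abcg1 was lower (−0.32).

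Factors, cytokines and receptors of effector helper lineages went both ways. Of 16 tested, 7 were higher and 5 lower. The list holds Il2, which could pass the filter on low counts only through the CD25+ libraries and so could not be called lower. Rora, a factor of IL-17-producing and innate lymphoid cells, rose from 21.97, 25.9 and 32.3 to 122, 132 and 117 CPM (log2 fold change 2.21 ± 0.13, adjusted p = 2.36e-17). Bcl6, the factor of follicular helper cells, rose from 25.5, 33.4 and 25.9 to 73.1, 89.5 and 90.8 CPM (log2 fold change 1.59 ± 0.12, adjusted p = 1.99e-14), Ahr, the aryl hydrocarbon receptor, from 5.605, 5.99 and 10.3 to 28.5, 29.7 and 31.9 CPM (log2 fold change 2.05 ± 0.20, adjusted p = 5.95e-11), and Eomes, a T-box factor, from 1.71, 2.096 and 0.698 to 16.7, 14.3 and 13.9 CPM (log2 fold change 3.33 ± 0.29, adjusted p = 3.10e-12). None of these overlapped. Id2, an inhibitor of E proteins, fell from 66.2, 91.8 and 91.3 to 20.9, 26.4 and 24.8 CPM (log2 fold change −1.78 ± 0.15, adjusted p = 1.31e-12), Il6ra from 124, 96.4 and 105 to 31.9, 23.7 and 27.6 CPM (log2 fold change −1.98 ± 0.10, adjusted p = 2.18e-19), and Il17rb, the IL-25 receptor chain, from 45.8, 49.5 and 49.96 to 13.1, 14.7 and 11.5 CPM (log2 fold change −1.88 ± 0.21, adjusted p = 1.22e-09).

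Chemokine and egress receptors went both ways, 4 higher and 5 (2 with all 15 libraries, 1 against a fold of 1.5) lower of 11 tested. The higher count includes Xcl1, given above, which is a chemokine and not a receptor. Ccr6 rose from 0.487, 0.674 and 0.407 to 9.66, 6.08 and 12.9 CPM (log2 fold change 4.20 ± 0.34, adjusted p = 3.63e-13) and Gpr183, the oxysterol receptor EBI2, from 38.5, 42.5 and 45.5 to 61.2, 77.9 and 75.98 CPM (log2 fold change 0.77 ± 0.11, adjusted p = 8.30e-07). Gpr18 fell from 42.6, 37.9 and 38.6 to 14.7, 13.5 and 12.6 CPM (log2 fold change −1.55 ± 0.14, adjusted p = 1.06e-11) and Plxnd1, a semaphorin receptor that guides thymocytes into the medulla, from 93.7, 83.2 and 95.4 to 62.2, 60.1 and 55.3 CPM (log2 fold change −0.62 ± 0.11, adjusted p = 2.74e-05). Ccr4, which draws newly selected cells to the medulla, had a log2 fold change of −0.64 ± 0.18 that was not called without conventional replicate 43 (−0.47), and its 29.1 to 38.2 CPM in progenitors were above the 2.81 to 4.92 CPM of FOXP3lo progenitors and 3.13 to 6.05 CPM of mature Tregs, both called.

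TGF-beta, Notch and Wnt genes were higher in 9 (5 against a fold of 1.5) and lower in 7 (3 against a fold of 1.5) of 23 cases. The TGF-beta receptor chains parted, with Tgfbr1 up from 63.9, 73.1 and 67.6 to 194, 199 and 179 CPM (log2 fold change 1.48 ± 0.08, adjusted p = 3.22e-19) and Tgfbr2 down from 342, 308 and 313 to 239, 235 and 235 CPM (log2 fold change −0.44 ± 0.07, adjusted p = 5.94e-07), while the inhibitor Smad7 was lower (−0.79). Notch3, a receptor of early thymocytes, rose from 2.56, 1.796 and 2.15 to 31.1, 23.2 and 21.7 CPM (log2 fold change 3.52 ± 0.28, adjusted p = 1.69e-13), and Dtx1 (Deltex), a Notch target, fell from 70.3, 69.8 and 60.1 to 24.5, 20.4 and 23.9 CPM (log2 fold change −1.54 ± 0.12, adjusted p = 2.79e-13). The Wnt ligand Wnt10a rose from 0, 0.374 and 0 to 11.7, 14.2 and 17.1 CPM (log2 fold change 7.14 ± 0.60, adjusted p = 2.61e-12), and Axin2, a target of beta-catenin, fell from 45.7, 57.04 and 65.2 to 19.4, 26.7 and 18.9 CPM (log2 fold change −1.36 ± 0.16, adjusted p = 3.82e-09).

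**Figure D5:**
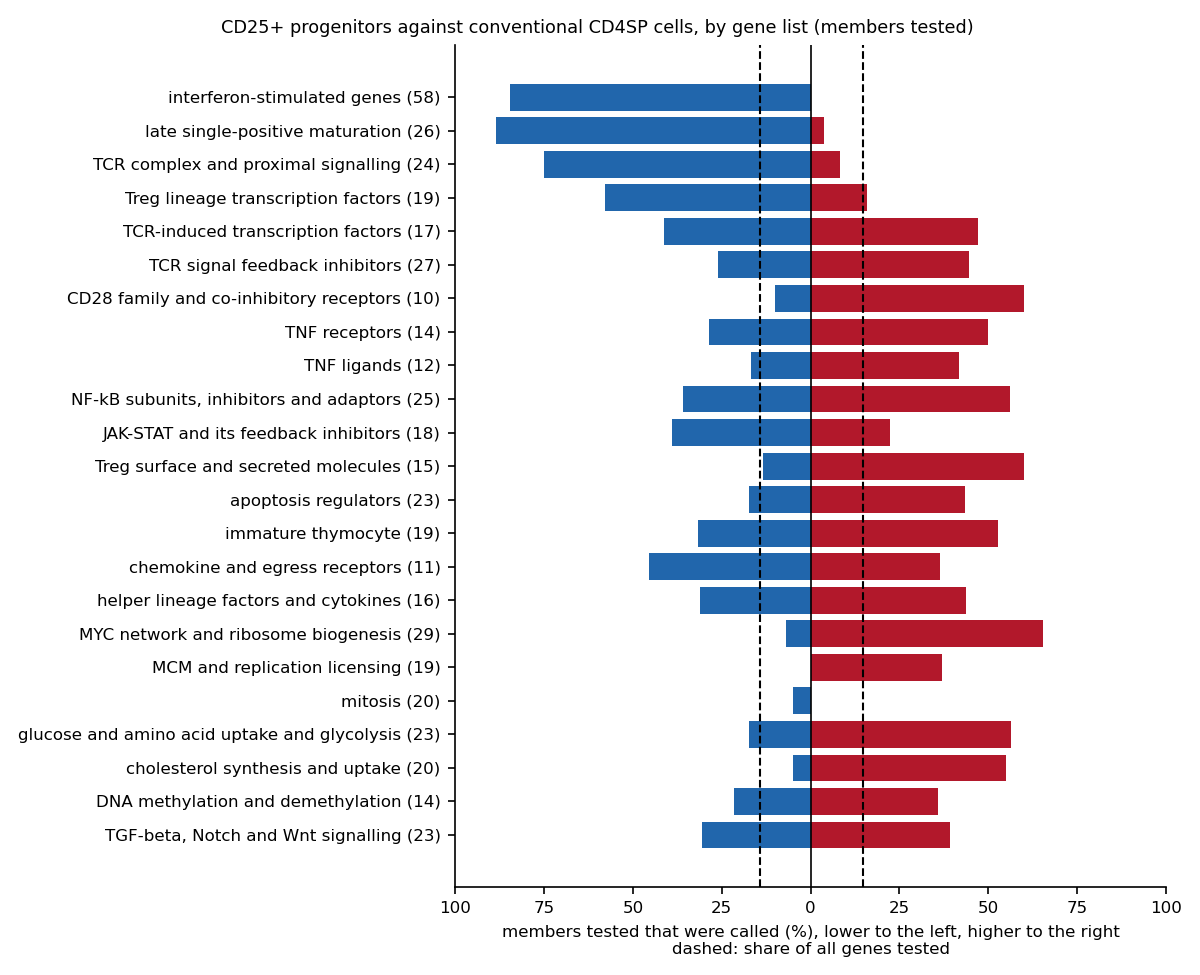
Share of tested members called higher (red, right) or lower (blue, left) in CD25+ progenitors, in percent, for 23 gene lists with the number tested in parentheses. Dashed lines mark the shares over all genes tested, 14.7% higher and 14.3% lower.

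CD25+ progenitors were also tested directly against each of the 3 other gates. In all 3 contrasts, which share the CD25+ libraries, 1094 genes were higher and 1026 were lower. Genes were ranked by the smallest of their 3 differences. Genes such as H19 and Epb41l4b could pass the filter on low counts only through the CD25+ libraries, so they could not be called lower. The count and ranks of the higher genes are therefore given as a description. Among the highest, H19 had no count in FOXP3lo progenitors and 1.004, 0 and 0 CPM in mature Tregs. Epb41l4b, a cytoskeletal linker, was at 12.7, 13.2 and 7.13 CPM in CD25+ progenitors, 0.0812 to 0.233 CPM in conventional cells, 0 to 0.4401 CPM in FOXP3lo progenitors and 0.06503 to 0.486 CPM in mature Tregs. Rag1 was at 1.796 to 2.64 CPM in FOXP3lo progenitors and 1.88 to 3.19 CPM in mature Tregs, and Kif26b, Gna14 and Tns3 completed the set, with log2 differences of 5.35, 6.60 and 3.69 from conventional cells, FOXP3lo progenitors and mature Tregs for Kif26b. Among the lower ones, Ifit3, an interferon-stimulated gene, was at 4.77, 4.51 and 3.35 CPM in CD25+ progenitors beside 14.2 to 17.6, 33.1 to 43.7 and 25.04 to 30.5 CPM in conventional cells, FOXP3lo progenitors and mature Tregs. Slc28a2b, a nucleoside transporter, was at 1.73, 0.963 and 1.38 CPM beside 7.96 to 9.96, 22.3 to 29.9 and 5.59 to 6.19 CPM. Tent5a, Sorcs2, Osgin1 and Cd55 completed the set, and Cd55 was not called against conventional cells without conventional replicate 40 (−2.49), conventional replicate 42 (−2.39), conventional replicate 43 (−2.61) or CD25+ replicate 43 (−2.10), and its change was −4.79 without CD25+ replicate 42.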

How the data were processed

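RNA from sorted thymocytes was made into stranded total RNA libraries with a SMARTer Pico kit for low input, per the labels' protocols. The deposited values are raw counts of reads per gene, not normalized. Per the file headers, they were made with featureCounts 1.6.2 from Ensembl 97 gene models (GRCm38), counting only read pairs whose ends both mapped, at a minimum mapping quality of 10 and with strand setting 2. The submitters' processing notes name Trimmomatic 0.33, HISAT2 2.1.0 and featureCounts 1.4.6.

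All 15 value columns matched a sample, and the 12 libraries without Bst2+ cells entered 1 fit. Genes passed edgeR's default filter on low counts, library sizes were scaled by TMM, and contrasts were tested with edgeR's quasi-likelihood test and Benjamini-Hochberg adjustment (R 4.3.3, edgeR 4.0.16). DESeq2 1.42.0 and limma 3.58.1 (voom) were alternatives, as were other scalings, filters, sets of libraries, a replicate block, a test against a fold of 1.5 and leaving out each library. The fitting code was tested on simulated data. Intervals and floors from counts include no error beyond counting, and library totals set that precision.

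The deposited table holds gene identifiers with positions. Of 55573 genes, 37417 were named from RefSeq GRCm38.p6 by position, 34079 of them by an overlap of at least 0.5 of the joint span. Of 682 entries in 36 gene lists, 671 matched, and 541 distinct list genes were tested. The unmatched entries were Dgkeos, Dusp1, Hspa8, Il4, Junb, Maf, Mndal, Ndn, Scart1, Tigit and Zac1. The genes and lists were chosen with earlier results of these data known. Named genes were the 12 highest and 12 lowest changes among called genes with no overlap and at least 5 CPM in the higher gate, up to 4 called members per list and direction with the smallest adjusted p, and the 6 highest and 6 lowest in all 3 contrasts, leaving out gate genes, receptor segments, pseudogenes and unnamed models. Other members were named to account for a list. Some members counted in the lists are not reported here by name and are left out of the plots of single genes.

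The labels share replicate numbers between gates, and the series text speaks of 3 biological replicates of a single sort. Deviations from the gate means correlated by 0.0092 to 0.054 in same-numbered pairs of the gates compared (mean 0.036). In different-numbered pairs they correlated by −0.065 to 0.019 (mean −0.018). Deviations cancel out within a gate, which ties the second mean to the first, so the second is no separate comparison. All 3 same-numbered values were positive, but none passed 0.1, an arbitrary cutoff, so the numbers were not treated as pairs. A fit with the number as a block is given among the alternatives.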

Additional observations from a re-analysis of the deposited data

How the results depend on the processing

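The 4534 genes called between CD25+ progenitors and conventional cells became 4533 with RLE and 4546 with upper quartile scaling, 4143 without a filter on low counts, 4520 with a filter of 2 CPM, 4623 from the 6 libraries alone, 4718 by DESeq2 and 4911 by limma-voom. Leaving out 1 library gave 3878 to 4199. With all 15 libraries in the fit, the count was 1871 (961 higher and 910 lower), and it was 3069 (1595 and 1474) against FOXP3lo progenitors and 2096 (1006 and 1090) against mature Tregs. The cause was not tested. A test against a fold of 1.5 called 1152 (673 higher and 479 lower), which asks for a larger change by construction. No gene called both in the main fit and in an alternative changed direction between them. For genes that lost their call, direction was checked only in the gene lists and among genes named outside them, where it held. With the replicate number as a block, 4615 genes were called, and of 395 called genes in the gene lists or named outside them 1 (Tnf) lost its call, while 4 uncalled genes gained one (Jun, Top2a, Cd274 and Wdr12). Of the 395, 127 lost it with all 15 libraries, 199 against a fold of 1.5, 22 to 33 without 1 library and 2 to 18 under the other alternatives. Depth limits genes with few counts in a gate, where 1 library can move the fitted change.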

Other observations

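Genes that write and remove DNA methylation were also measured, since the conserved regions of Foxp3 lose methylation as Tregs mature. Of 14 tested, 5 (3 against a fold of 1.5) were higher in CD25+ progenitors and 3 (1 with all 15 libraries, 0 against a fold of 1.5) lower. Tet2, an enzyme that oxidises methylcytosine, rose from 190.2, 168 and 172 to 364, 374 and 347 CPM (log2 fold change 1.03 ± 0.08, adjusted p = 1.32e-14), while Tet1, of the same family, fell from 130.5, 110 and 110 to 85.7, 85.02 and 86.4 CPM (log2 fold change −0.45 ± 0.09, adjusted p = 6.98e-05). Gadd45b, a stress factor tied to demethylation, rose from 7.07, 6.44 and 9.95 to 35.5, 36.6 and 41.3 CPM (log2 fold change 2.27 ± 0.20, adjusted p = 4.94e-12), and Uhrf1, which brings the maintenance enzyme to replicated DNA, from 43.6, 27.5 and 43.9 to 87.4, 68.7 and 76.04 CPM (log2 fold change 1.005 ± 0.14, adjusted p = 1.41e-07). Dnmt1, that enzyme, was at 207 to 265 and 256 to 269 CPM and was not called, and Mbd1 (−0.25) was not called without conventional replicate 40 (−0.22), conventional replicate 43 (−0.24) or CD25+ replicate 42 (−0.13).

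Of 6 imprinted genes tested, 4 were higher and 0 were lower, with 0 lower members at an unadjusted p under 0.05 by edgeR's quasi-likelihood test and 0 called by DESeq2 or limma-voom. H19, counted as higher, could pass the filter on low counts only through the CD25+ libraries. Beside H19, Plagl1, a zinc finger factor, rose from 0.203, 0.374 and 0.291 to 8.86, 7.66 and 5.11 CPM (log2 fold change 4.67 ± 0.41, adjusted p = 2.40e-12), and Igf2r, a lysosomal sorting receptor, from 259, 202 and 245 to 399, 377 and 429.6 CPM (log2 fold change 0.77 ± 0.07, adjusted p = 8.56e-12). Genes induced by tissue dissociation were higher in 2 (1 with all 15 libraries, 0 against a fold of 1.5) and lower in 3 (1 against a fold of 1.5) of 13 cases. Fos was at 6.66 to 8.899 and 4.64 to 8.14 CPM and Jun at 12.5 to 27.4 and 11.3 to 12.98 CPM, and neither was called. Jun was called lower with the replicate number as a block (log2 fold change −0.82) and from the 6 libraries alone (log2 fold change −0.86). Zfp36, which destabilises cytokine messages, fell from 98.9, 88.9 and 108 to 49.2, 42.7 and 55.9 CPM (log2 fold change −1.01 ± 0.11, adjusted p = 1.03e-08). The higher ones were Fosl2 (0.84) and Klf4 (2.95), and Klf4 was not called without conventional replicate 40 (2.39), conventional replicate 43 (2.83) or CD25+ replicate 43 (2.58) and was at 3.91 without conventional replicate 42. Of 5 markers of recirculating Tregs tested, 2 (1 with all 15 libraries, 1 against a fold of 1.5) were higher and 1 was lower (Prdm1). The higher ones were Ccr6 and Itgae, and Itgae was not called without conventional replicate 42 (0.94), conventional replicate 43 (0.94) or CD25+ replicate 40 (0.80). Klrg1 and S100a4 had no count in either gate.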
